A study of Mus musculus with 6 samples.

Results

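The genes described here are 9 partners of triadin at the junctional sarcoplasmic reticulum (SR) of the heart, namely *Ryr2*, *Sri*, *Fkbp1a*, *Casq2*, *Casq1*, *Hrc*, *Asph*, *Jph2* and *Jph1*. They were chosen by their gene symbol, and all 9 were found among the 21776 genes of the deposited table. The samples were hearts of 3 *Trdn-as* KO mice and 3 WT mice, with 1 stranded library of total RNA per heart. *Trdn-as* is a lncRNA encoded on the strand opposite to the triadin gene *Trdn*, and the KO mice were homozygous for a polyadenylation signal in its first exon, which had been inserted in embryonic stem cells with Cas9. The insertion was passed through the germ line and was not limited to cardiomyocytes by a promoter or by Cre. The chimeric founders had been backcrossed to C57BL/6 mice. The hearts were adult by the labels, which name no treatment, and the age of the mice is not given in the sources used here. The labels number the hearts but do not say more on their origin, so the p-values measure the spread between these samples.

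In cardiomyocytes, calcium entering through the L-type channel of the T-tubule opens the ryanodine receptor RYR2 in the facing SR membrane, and the calcium stored in the SR is released into the cytosol. Triadin and junctin are membrane proteins that connect RYR2 with calsequestrin, the calcium buffer of the SR lumen, while junctophilins hold the SR and the T-tubule at a short distance. Skeletal muscle uses partly different paralogues in the same places, with RYR1, CASQ1 and JPH1 as prominent forms. The question asked of the data was whether transcripts of the partners differed in hearts in which transcription of *Trdn-as* was disrupted.

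Values are normalised read counts, meaning reads per gene divided by a size factor of the library and rounded, and they are not corrected for gene length. By an estimate from the pattern of the rounded values, the libraries held 2.59 to 3.62 M counted reads, the fewest in WT replicate 1. *Trdn-as*, listed as AC157017.2, had values of 1, 0 and 1 in the KO hearts and 690, 773 and 688 in the WT hearts, which checks the labels. *Trdn* had 2489, 2381 and 2551 in KO and 1541, 1541 and 1516 in WT, and its log2 fold change was 0.69 ± 0.052 (SE) at an adjusted p of 2.35e-07 (limma). Here and throughout, the log2 fold change is KO minus WT on log2(value + 1), limma is a linear model with a spread shared between genes, and p-values were adjusted over all tested genes. All 10 markers of cardiomyocytes that were looked up were present, and their summed value was 88727 to 92580 in KO and 91554 to 113456 in WT, with the highest sum in WT replicate 1. Most of this sum came from the long gene *Ttn*, with 73738 to 76849 in KO and 76522 to 94044 in WT. Each of these 10 markers was lower on average in KO, by a median log2 fold change of -0.16, and 0 of them passed the adjusted threshold. In whole hearts, fewer cells of a type and less RNA per cell cannot be told apart.

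Changes of the partners in KO hearts were small, and none passed the test. All 9 were abundant enough to be tested, and 0 of 9 had an adjusted p under 0.05 in limma, while 4 of all 13753 tested genes, or 0.0291%, did. The 8 members *Ryr2*, *Sri*, *Fkbp1a*, *Casq2*, *Hrc*, *Asph*, *Jph2* and *Jph1* had lower means in KO and *Casq1* had a higher mean. The median log2 fold change was -0.12 for the 9 members and 0.00 for all tested genes, of which 49.4% were lower in KO. At an unadjusted limma p under 0.05, 4 of 9 members were lower in KO (*Ryr2*, *Hrc*, *Asph* and *Jph2*), against 2.8% of all tested genes. In 3 of 9 members (*Ryr2*, *Asph* and *Jph2*) every KO heart lay below every WT heart, which was the case for 4.44% of all tested genes. Of the 10 cardiomyocyte markers, 8 were lower at the same unadjusted threshold. Every KO heart lay below every WT heart for 1 of the 10, *Nkx2-5*. Centred on those markers, an alternative chosen after seeing the data, all 9 members were higher in KO, with a median of 0.06, while the median of all tested genes moved to 0.18. With a correction for read density (reads per exonic kilobase) the median of the members was -0.03, with *Ryr2* at -0.06, *Hrc* at -0.03, *Casq2* at -0.01, *Jph2* at -0.11 and *Asph* at -0.10. *Fkbp1a* at -0.12, *Sri* at -0.03 and *Jph1* at -0.03 moved little, and *Asph* was the member left at an unadjusted p under 0.05. Markers of other cells were looked up as well. All 6 endothelial markers had higher means in KO, by a median of 0.04 and with *Vwf* at 0.34, and summed values were 4157 to 4797 in KO and 4168 to 4515 in WT. All 5 red blood cell markers had lower means in KO, by a median of -0.22, with sums of 164 to 304 in KO and 151 to 423 in WT. None of them passed the adjusted threshold in limma, *Vwf* was under an unadjusted p of 0.05, and the sums of both lists overlapped between the groups. Of 6 fibroblast markers 3 were lower and 3 higher in KO, with a median of -0.02. By log2 fold change, 3 of 5 macrophage markers were lower and 2 higher, with a median of 0.00. Of these 3, *Csf1r* was near 0 and its mean was slightly higher in KO. *Cd163* was at 0.21, under an unadjusted limma p of 0.05. Of 4 smooth muscle markers 3 were lower and 1 higher, with a median of -0.08, and *Acta2* was lower in every KO heart than in every WT heart. Of 5 atrial markers 2 were lower and 3 higher, with a median of 0.10. Their sums were 436 to 628 in KO and 450 to 622 in WT. Among them *Bmp10* was uneven, with 0, 8 and 2 in KO and 1, 0 and 56 in WT. What part the cell content of the samples had in the lower values was not tested.

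**Figure D1:**
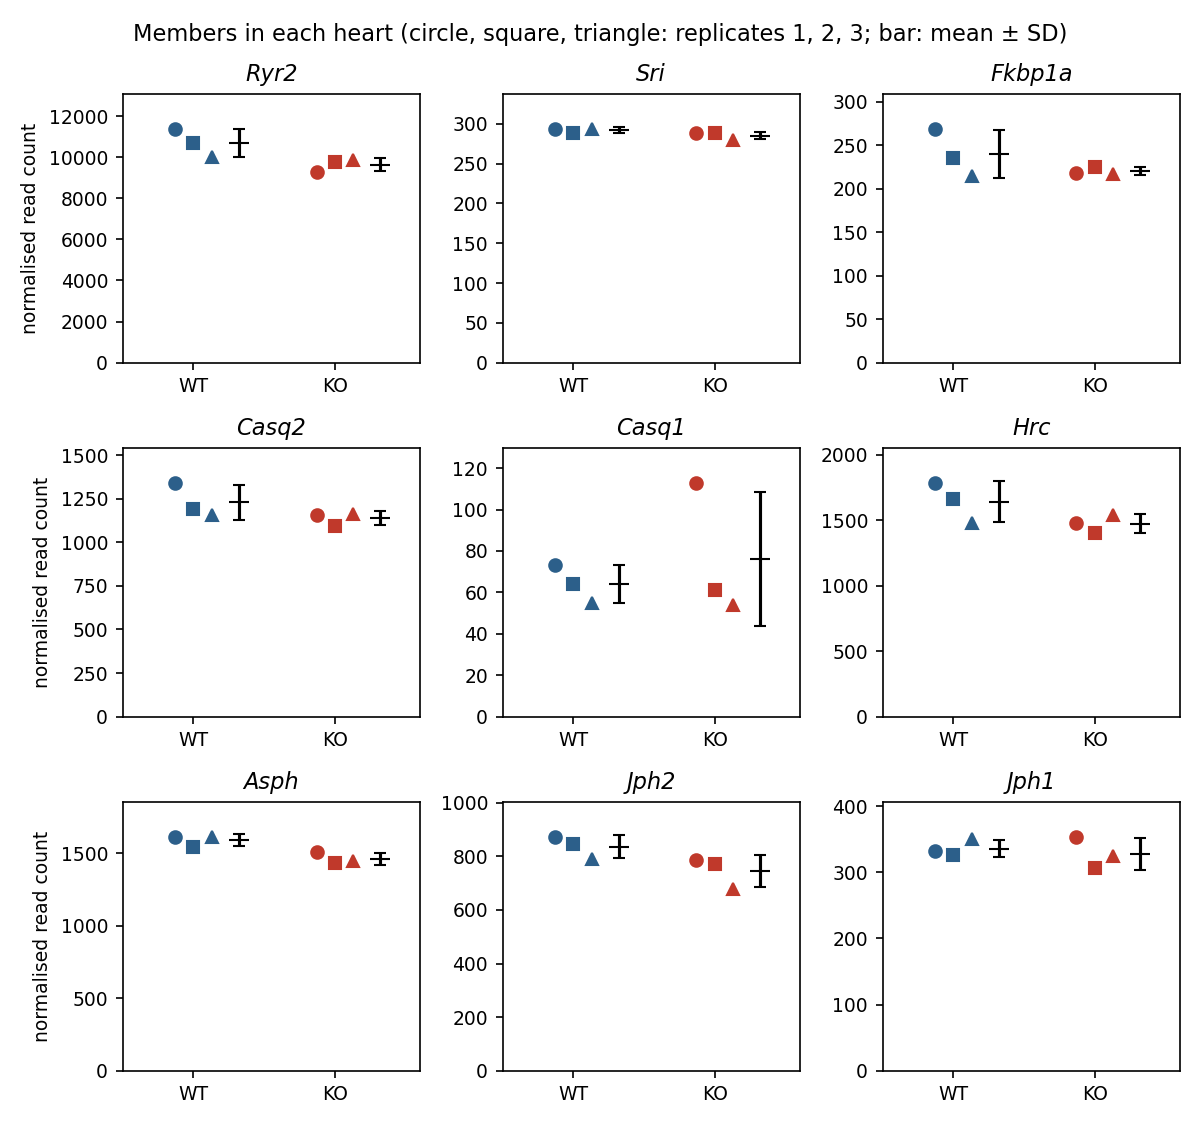
Normalised read count of each of the 9 members in each heart, with WT in blue and KO in red. Circles, squares and triangles are replicates 1, 2 and 3, black bars are mean ± SD, and each axis starts at 0. KO lies below WT without overlap for *Ryr2*, *Asph* and *Jph2*, and *Casq1* is high in KO replicate 1 alone, at 113.

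Among the genes of the release channel and its regulators, *Ryr2* (chr13:11553102-12106945, minus strand, GRCm38) encodes the calcium release channel of the cardiac SR. Its values were 9276, 9785 and 9861 in KO and 11387, 10676 and 9991 in WT. The groups did not overlap, but the highest KO heart and the lowest WT heart were close to each other. The mean differed by -9.77%, and the log2 fold change was -0.15 ± 0.058 (SE), with a 95% interval of -0.27 to -0.03 and an adjusted p of 0.841 (limma). *Ryr2* also had the most reads of all members, 9054 to 11022 per heart, so that counting error was about 1% and the spread between hearts exceeded it, with a coefficient of variation of 3.30% in KO and 6.53% in WT. The libraries held more counted reads on average in KO, 3.36 M against 3.03 M in WT. From the smallest library, WT replicate 1 at 2.59 M, to the largest, KO replicate 1 at 3.62 M, *Ryr2* fell in order of library size except in WT replicate 3. What part library size had in this spread was not tested.

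*Sri* (chr5:8046078-8069379, plus strand) encodes sorcin, a calcium-binding protein that inhibits RYR2. The KO hearts had 288, 288 and 280 and the WT hearts 294, 288 and 294. This was the most even of the 9 members, with overlapping groups and a coefficient of variation of 1.62% in KO and 1.19% in WT, under the counting error of 5.50% to 6.54%. The log2 fold change was -0.03, with a 95% interval of -0.19 to 0.12, or -12.0% to 8.56%. *Fkbp1a* (chr2:151542483-151561692, plus strand) encodes FKBP12, an immunophilin that binds ryanodine receptors. It had 218, 225 and 217 in KO and 269, 235 and 215 in WT, so that the lowest heart of all was WT replicate 3. *Fkbp1a* had a log2 fold change of -0.12, with a 95% interval of -0.30 to 0.07 and an adjusted p of 0.907 (limma), and it was -0.03 without WT replicate 1 and -0.19 without WT replicate 3. Its paralogue *Fkbp1b*, encoding FKBP12.6, had 0, 4 and 2 in KO and 0, 3 and 3 in WT, which is at about the floor of 3 reads, and it was not tested.

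Of the proteins that bind calcium in the SR lumen, *Casq2* (chr3:102086415-102146514, plus strand) encodes the cardiac form of calsequestrin. It had 1158, 1092 and 1163 in KO and 1342, 1188 and 1156 in WT. WT replicate 1 stood highest and WT replicate 3 lay among the KO hearts. A log2 fold change of -0.11 ± 0.062 (SE) was found, with a 95% interval of -0.24 to 0.02 and an adjusted p of 0.879 (limma), and it was -0.04 without WT replicate 1. *Hrc* (chr7:45335290-45338974, plus strand), encoding the histidine-rich calcium-binding protein that binds triadin, showed a similar order of hearts, with 1483, 1400 and 1541 in KO and 1788, 1662 and 1481 in WT. WT replicate 3 again lay within the range of the KO hearts. For *Hrc* it was -0.15, with a 95% interval of -0.29 to -0.02 and an adjusted p of 0.851 (limma), and it was -0.09 without WT replicate 1.

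*Casq1* (chr1:172209894-172219868, minus strand) encodes the calsequestrin that prevails in fast skeletal muscle. It had 113, 61 and 54 in KO and 73, 64 and 55 in WT. Only KO replicate 1 was high, and the other KO hearts lay close to the WT hearts. Its log2 fold change was 0.18 ± 0.21 (SE), with a 95% interval of -0.26 to 0.61, and it was -0.15 without KO replicate 1. The coefficient of variation was 42.4% in KO, which comes with KO replicate 1, and 14.1% in WT. Counting error, at 54 to 130 reads per heart, was 8.78% to 13.6%. Skeletal muscle markers did not stand out in that heart: 6 of 9 markers were listed, each too low to be tested, and their summed value was 12 in KO replicate 1, within the 9 to 13 of all KO hearts and the 9 to 19 of the WT hearts. Of the 1951 exonic bases of *Casq1*, 156 overlap the antisense gene Gm17224, which had values of 1 to 7. The methods of the study describe counting by strand.

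The calsequestrin genes differed in level, with means of 432 (*Casq2*) and 35.9 (*Casq1*) normalised reads per exonic kilobase, and their upstream sequences are shown for that reason. Both are the 250 bases before the start site in RefSeq, build GRCm38.p6, written 5′ to 3′ on the strand of the gene, *Casq2* at chr3:102086165-102086414 and *Casq1* at chr1:172219896-172220145. Capitals mark a match to the MEF2 element.
Casq2: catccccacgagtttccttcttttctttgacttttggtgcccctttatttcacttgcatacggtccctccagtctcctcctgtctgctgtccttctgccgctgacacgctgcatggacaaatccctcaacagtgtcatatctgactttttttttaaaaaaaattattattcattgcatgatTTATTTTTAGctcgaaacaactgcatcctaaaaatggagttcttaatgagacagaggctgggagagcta
Casq1: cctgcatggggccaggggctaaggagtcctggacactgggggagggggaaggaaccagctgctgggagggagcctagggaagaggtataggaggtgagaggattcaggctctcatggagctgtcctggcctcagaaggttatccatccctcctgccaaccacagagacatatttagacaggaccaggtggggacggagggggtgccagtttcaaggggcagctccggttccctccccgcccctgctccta

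The match in *Casq2* lies from -69 to -60 of the start site, and 3.19% of the 32851 promoters of the table hold one. RefSeq promoters were at hand for 7 of the 9 members, *Casq1*, *Casq2*, *Fkbp1a*, *Hrc*, *Jph2*, *Ryr2* and *Sri*. In windows from 250 bases before to 50 after the start, on both strands, the MEF2 element was found in *Casq2* alone. The letters CATTCC, the core of the element bound by TEAD factors, were found in *Sri* alone, from -198 to -193, and in 14.7% of all promoters. The CArG box and the GATA motif with the letters AGATAA were found in 0 of the 7 and in 1.63% and 11.2% of all promoters. A match is a description of letters and not a binding site.

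*Asph* (chr4:9449079-9669344, minus strand) encodes junctin, the closest relative of triadin in the SR, and also junctate and aspartyl beta-hydroxylase, which share exons with it. It had 1507, 1433 and 1447 in KO and 1616, 1543 and 1611 in WT. All KO hearts lay below all WT hearts, and unlike most members WT replicates 1 and 3 were about equal. Its log2 fold change was -0.12 ± 0.053 (SE), with a 95% interval of -0.23 to -0.01 and an adjusted p of 0.851 (limma). The annotation gives 20 transcripts of *Asph*, 15 of them coding, and a count per gene does not separate junctin from the others. Of the exonic bases of *Asph*, 14.3% overlap *Clvs1* on the opposite strand, so that strand-aware counting, which the methods of the study describe, matters for this gene.

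The junctophilins tether the SR to the T-tubule. *Jph2* (chr2:163336242-163397993, minus strand), the cardiac form, had 788, 772 and 679 in KO and 874, 845 and 791 in WT. The groups did not overlap, but KO replicate 1 and WT replicate 3 were nearly equal. *Jph2* had a log2 fold change of -0.17 ± 0.067 (SE), with a 95% interval of -0.31 to -0.03 and an adjusted p of 0.841 (limma), and it was -0.10 without KO replicate 3. *Jph1* (chr1:16994938-17097889, minus strand), the form that prevails in skeletal muscle, had 354, 306 and 325 in KO and 332, 326 and 350 in WT. The hearts were mixed in order, and the highest and the lowest were both KO hearts. *Jph1* had a log2 fold change of -0.04, with a 95% interval of -0.19 to 0.12, and it was 0.01 without KO replicate 2.

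**Figure D2:**
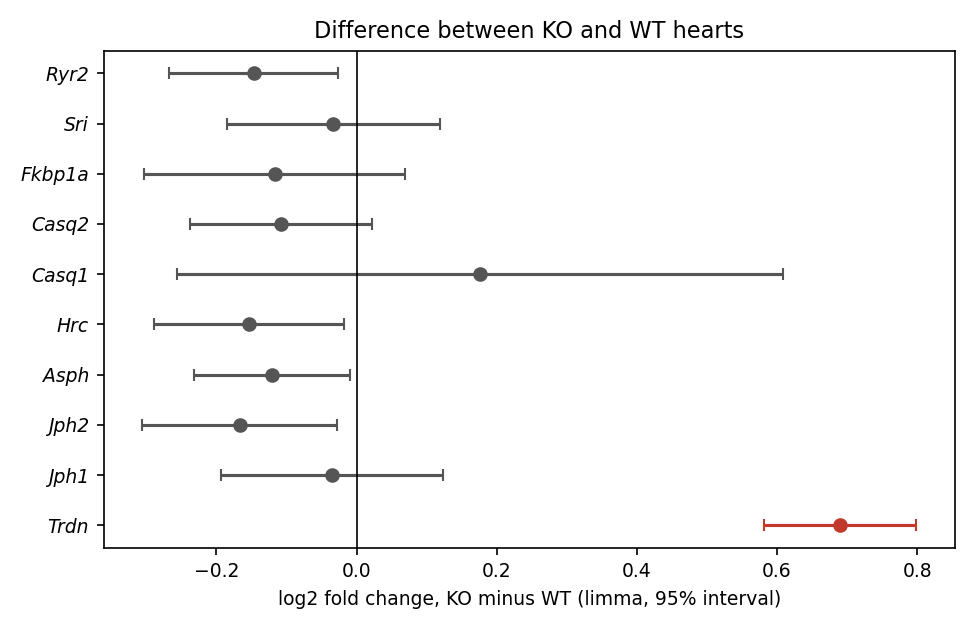
Log2 fold change of KO minus WT for the 9 members (grey) and *Trdn* (red), with the 95% interval of limma. The intervals of *Ryr2*, *Hrc*, *Asph* and *Jph2* lie below 0 before adjustment, that of *Casq1* is the widest, and *Trdn* lies apart at 0.69.

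The intervals of most partners were narrow in the reported analysis, and other settings widened or moved them. Leaving out *Casq1*, the 95% intervals of the 8 members lay between -0.31 and 0.12 on the log2 scale, or -19.1% to 8.91%. Their SE was 0.053 to 0.089, below the median SE of 0.12 over all tested genes. Over the alternatives the lowest bound of these 8 members was -0.39, for *Jph2* without the mean-variance trend, and the highest was 0.40, for *Sri* with centring on the cardiomyocyte markers. A p that misses the threshold does not show that KO and WT hearts were alike.

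The lower values were unevenly spread over the hearts. WT replicate 1 was the highest or joint highest heart for 7 of 9 members, all except *Casq1* and *Jph1*, which were highest in KO replicate 1. The median deviation of the members from the mean of the 6 hearts was 0.15 on the log2 scale in WT replicate 1, and the cardiomyocyte markers deviated by 0.26 in that heart. In WT replicate 3 both were below 0, at -0.02 and -0.09. The members *Fkbp1a*, *Casq2* and *Hrc* followed the markers in this order, with WT replicate 3 below 1 or more KO hearts, whereas *Asph* stood at 0.08 in WT replicate 3. Without WT replicate 1, which was also the smallest library, 1 of 9 members was at an unadjusted limma p under 0.05, in place of 4. The count was also 1 without WT replicate 2, and 2 without KO replicate 2 or without KO replicate 3. The part of library size in these values was not tested.

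**Figure D3:**
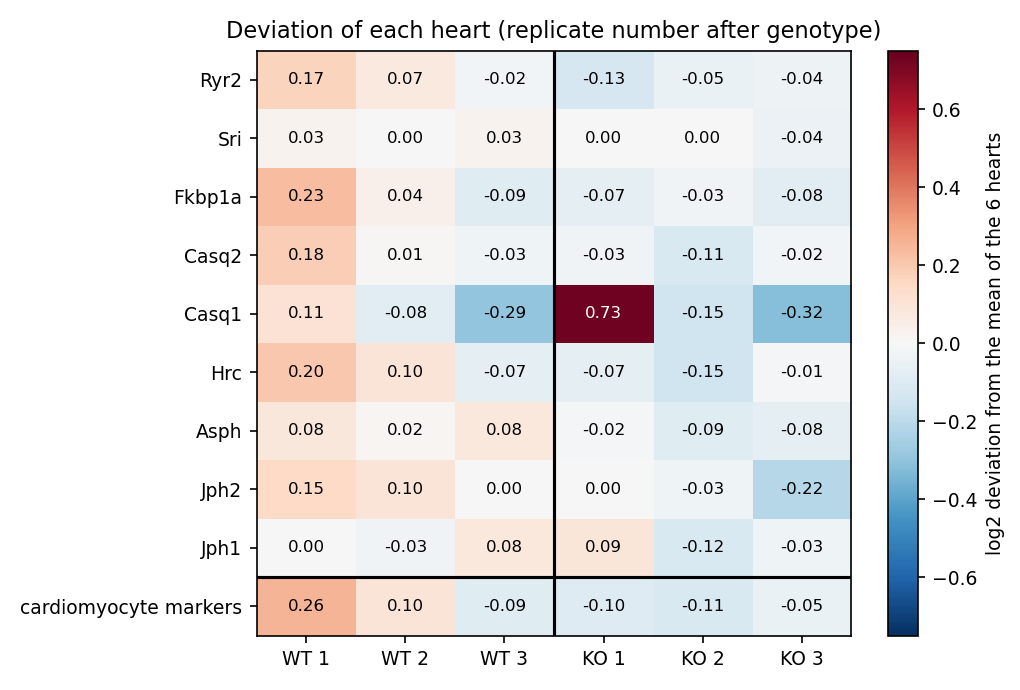
Log2 deviation of each heart from the mean of the 6 hearts, for the 9 members and, below the line, the mean of 10 cardiomyocyte markers. Red is above and blue below the mean, WT on the left and KO on the right. WT replicate 1 is above the mean for the members and reaches 0.26 for the markers, and *Casq1* in KO replicate 1 stands out at 0.73.

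Ratios within a heart are free of the library scaling. Per 100 reads of *Ryr2*, *Trdn* had 26.8, 24.3 and 25.9 reads in KO and 13.5, 14.4 and 15.2 in WT. The groups were far apart, and the exact two-sided permutation test gave p = 0.1, the smallest that 3 against 3 hearts allow, or 0.9 adjusted over 9 ratios. The other 8 partners overlapped between the groups in their ratio to *Ryr2*. *Casq2* had 11.8 ± 0.662 per 100 *Ryr2* reads in KO and 11.5 ± 0.335 in WT (SD, n = 3 each). *Hrc* had 15.3 ± 0.884 and 15.4 ± 0.473, and *Asph* had 15.2 ± 0.916 and 14.9 ± 1.05, in the same order. *Jph2* had 7.76 ± 0.813 and 7.84 ± 0.139. *Sri*, *Fkbp1a*, *Jph1* and *Casq1* had 2.96, 2.28, 3.41 and 0.796 in KO and 2.74, 2.24, 3.16 and 0.597 in WT.

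Relative to *Trdn*, which was higher in KO, the 4 partners *Ryr2*, *Casq2*, *Hrc* and *Asph* had lower values there, and the other members were not computed. There were 390 ± 19.4 *Ryr2* reads per 100 *Trdn* reads in KO and 697 ± 40.1 in WT. For *Casq2* the values were 46.0 ± 0.481 and 80.1 ± 6.03, for *Hrc* 59.6 ± 0.805 and 107 ± 9.19, and for *Asph* 59.2 ± 2.11 and 104 ± 3.22 (SD, n = 3 each). In WT hearts *Asph* and *Hrc* reads were therefore about as many as *Trdn* reads, and in KO hearts clearly fewer. The study reported a switch from the cardiac to the longer skeletal muscle isoform of *Trdn* in KO hearts. A *Trdn* count holds the reads of all its isoforms, so these are ratios of reads and not of molecules. What part the isoforms had in the ratios was not tested.

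Shares of the skeletal paralogues were compared within each pair. *Casq1* made up 8.89%, 5.29% and 4.44% of all calsequestrin reads in KO and 5.16%, 5.11% and 4.54% in WT. Only KO replicate 1 lay outside the range of the WT hearts by more than a small margin, and the exact permutation test gave p = 0.5. *Jph1* made up 31.0%, 28.4% and 32.4% of the reads of *Jph1* and *Jph2* in KO and 27.5%, 27.8% and 30.7% in WT. The groups overlapped, with p = 0.2 in the exact permutation test and 0.6 adjusted over 3 shares, and the difference of 1.90 percentage points ranged from 1.01 without KO replicate 3 to 3.00 without KO replicate 2. *Ryr1*, the skeletal release channel, was near the floor with values of 2, 4 and 8 in KO and 8, 4 and 3 in WT, or 0.0477% and 0.0457% of the reads of the 3 ryanodine receptor genes. *Ryr3* had 42, 37 and 33 in KO and 40, 34 and 45 in WT.

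Levels of different genes can be compared only per length, here per kilobase of annotated exons. *Hrc* had the highest level with a mean of 608 normalised reads per exonic kilobase, then *Casq2* with 432 and *Ryr2* with 353. *Jph2* followed with 186, *Asph* with 94.8, *Jph1* with 66.5, *Fkbp1a* with 59.6, *Sri* with 59.5 and *Casq1* with 35.9. The highest and the lowest member differed 16.9-fold. The ranges over the 6 hearts of *Jph1* and *Fkbp1a*, of *Fkbp1a* and *Sri*, and of *Sri* and *Casq1* overlapped, while the other neighbours in this order were apart. The order depended on the length used, since the exons of *Ryr2* cover 28.8 kb and its longest coding transcript 16.8 kb, and those of *Asph* 16.1 kb and 6.69 kb. Per kilobase of the longest coding transcript *Ryr2* rose to 604, overlapping *Hrc* at 647, and *Asph* at 228 stood above *Jph2* at 188. *Fkbp1a* at 139 and *Sri* at 115 then stood above *Jph1* at 69.1, with ranges apart.

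**Figure D4:**
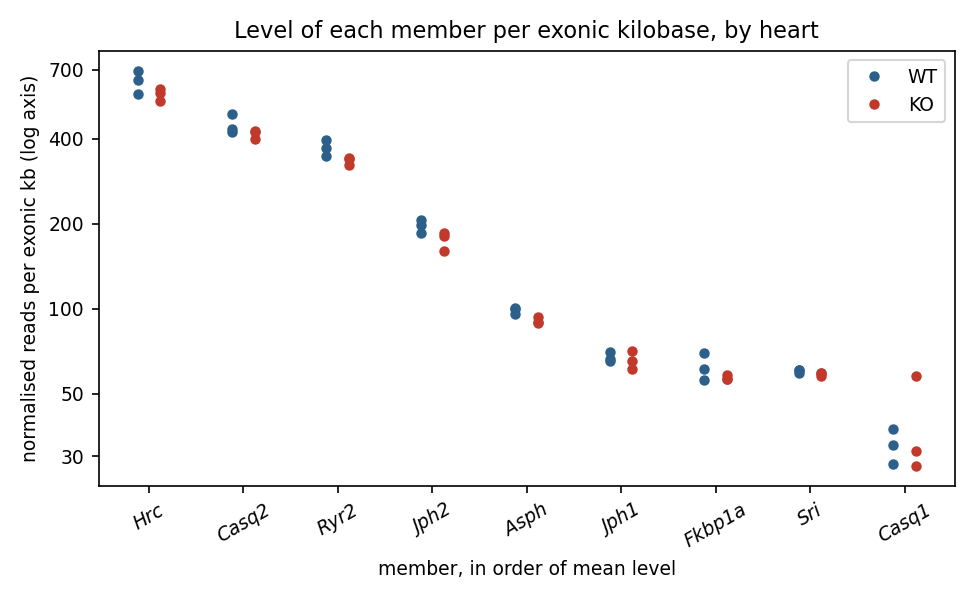
Normalised reads per exonic kilobase of each member on a log axis, in order of the mean, with a point for each heart (WT blue, KO red). The levels fall from 608 for *Hrc* to 35.9 for *Casq1*. The genotypes lie close together within each gene except *Casq1*, in which KO replicate 1 lies above the other hearts.

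Some annotated transcripts lie inside introns of the members on the same strand and share no exon with them, and they were picked after their values had been seen. AC131329.1 (chr13:11818248-11821734) lies in *Ryr2* and had 173, 127 and 130 in KO and 236, 216 and 179 in WT. All KO hearts were below all WT hearts, and the log2 fold change of -0.56 ± 0.12 (SE) had an adjusted p of 0.341 (limma), so that it was not called. CT572985.1 (chr13:12047342-12052055), also in *Ryr2*, had 519, 567 and 588 in KO and 522, 511 and 690 in WT, with overlapping groups and a log2 fold change of -0.03. In *Casq2*, Gm43244 and 4632404M16Rik had log2 fold changes of -0.09 and -0.18, and their groups overlapped.

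Of the wider release and reuptake machinery, 44 further genes were looked up, of which 39 were abundant enough to be tested. None passed the adjusted threshold in limma. The means of 34 were lower in KO and of 5 higher, with a median log2 fold change of -0.09, and 7 were lower and 0 higher at an unadjusted limma p under 0.05. Over all tested genes 49.4% were lower, and 2.8% were lower at that threshold. The cardiomyocyte markers, of which 8 of 10 were lower at that threshold, had lower means as well, and *Pln* is in both lists. Among 14 tested regulators of RYR2, such as calmodulin and CaM kinase genes, *Pde4d*, a cAMP phosphodiesterase, was the only one at that threshold, with 371, 356 and 337 in KO and 405, 402 and 413 in WT. Among 9 tested scaffold genes it was *Lrrc10*, a cardiac leucine-rich repeat protein, with 325, 304 and 289 in KO and 381, 370 and 353 in WT. Both were lower in every KO heart than in every WT heart, by 0.20 and 0.27 on the log2 scale. The same separation of the hearts held for 10 of these 39 tested genes, against 4.44% of all tested genes.

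Of 6 lumenal calcium-binding genes, *Hspa5* and *Hsp90b1*, which encode chaperones of the endoplasmic reticulum, were lower by 0.16 and 0.15 at the unadjusted threshold. Among the other release channels it was *Itpr2*, an inositol trisphosphate receptor, with 655, 743 and 743 in KO and 815, 741 and 831 in WT. The calcium pump *Atp2a2* had 3788, 4047 and 4124 in KO and 5050, 4387 and 3943 in WT, and its inhibitor *Pln* had 1956, 2046 and 2117 in KO and 2602, 2230 and 2010 in WT. In both, WT replicate 1 was the highest heart and WT replicate 3 lay within the range of the KO hearts. *Jph3* was not analysed here, and *Jph4*, at values of 1 to 3, was too low to be tested.

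For each member, the 3 genes with the most similar pattern over the 6 hearts were taken from 7063 genes with a mean of at least 100, by Pearson's r on the log2 scale. The 6 hearts share their scaling and their groups across genes, and r is given as a description. For *Ryr2* these were *Pam*, *Smyd1* and *Hspa8* (r of 0.990, 0.988 and 0.987), for *Hrc* *Gata4*, *Coq9* and *Mpc2* (0.998, 0.997 and 0.996), and for *Casq2* *Mdh1*, *Rwdd1* and *Akr1b3* (0.994, 0.993 and 0.991). *Fkbp1a* was closest to *Mdh2*, *Vasp* and *Csrp3*, *Asph* to *Ensa*, *Fam210a* and *Enah*, *Jph2* to *Zdhhc6*, *Ndufb11* and *Tmem143*, *Jph1* to *Asb18*, *Fundc2* and *Ric8b*, *Sri* to *Aak1*, *Cdk16* and *Mon2*, and *Casq1* to *Gtpbp4* and *Bach1*. None of the genes named here was among the 3 closest of more than 1 member.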

How the data were processed

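Total RNA of 6 hearts was sequenced with 75 base single-end reads. Per the labels and the methods of the study, the authors used Trimmomatic 0.39, STAR 2.6.1d on GRCm38, Picard 2.21.1, featureCounts 1.6.5 and DESeq2 1.18.1. The deposited score of a gene is its number of reads over the DESeq2 size factor, rounded, so no count model was used. A pseudocount of 1 was added before taking log2. A mean value under 10 removed 8023 genes and left 13753. The test was limma (version 3.58.1, R 4.3.3, mean-variance trend, two-sided, Benjamini-Hochberg over all tested genes, threshold 0.05). Shares and ratios were compared with exact permutation tests over hearts. The genes named were the members, *Trdn*, *Trdn-as*, the context lists and the 3 genes of most similar pattern, of which 1 is not reported here. The members and lists were chosen with earlier results of these data known. Exons came from GENCODE M21, which holds 99.8% of the gene identifiers, and promoters from RefSeq. Read numbers per heart were estimated from the rounding pattern. The counting errors and the floor of 3 reads, at values of 2.61 to 3.77, treat each read as its own molecule, which cannot be checked without molecular identifiers. The authors had removed duplicate reads with Picard before counting, and what this did to the values was not tested. Alternatives were other scalings, filters, pseudocount and limma settings, a replicate block, a correction for read density and leaving out each heart.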

Additional observations from a re-analysis of the deposited data

How the results depend on the processing

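Under all 16 alternatives 0 of 9 members were called by limma, and the lowest adjusted p was 0.185. Counts at an unadjusted p under 0.05 were less stable: 4 in the reported analysis, 0 without the mean-variance trend, 1 with the read density correction, 0 with centring on cardiomyocyte markers (chosen after seeing the data) and 1 to 4 when 1 heart was left out. Members lower in KO numbered 0 with that centring and 7 to 9 with a heart left out, and the median was 0.057 and -0.15 to -0.043. The median was -0.034 with the read density correction, and lower members numbered 8. Centring turned *Ryr2* to 0.027, *Sri* to 0.14, *Fkbp1a* to 0.057, *Casq2* to 0.065, *Hrc* to 0.020, *Asph* to 0.053, *Jph2* to 0.0072 and *Jph1* to 0.14, while moving the median of all genes to 0.18. With a heart left out, *Casq1* ranged from -0.15 to 0.38, *Jph1* from -0.091 to 0.014 and *Sri* from -0.043 to -0.020. In the same fits *Fkbp1a* ranged from -0.19 to -0.031 and *Casq2* from -0.15 to -0.043. *Hrc* ranged from -0.23 to -0.090 and *Jph2* from -0.21 to -0.10. The *Casq1* share differed by -0.0737 to 2.15 and the *Ryr1* share by -0.0146 to 0.0150 percentage points. Log2 ratios to *Ryr2* ranged from -0.0023 to 0.079 for *Casq2*, -0.028 to 0.55 for *Casq1*, -0.039 to 0.041 for *Hrc*, -0.023 to 0.083 for *Asph*, -0.088 to 0.063 for *Jph2*, 0.028 to 0.19 for *Jph1*, 0.0014 to 0.069 for *Fkbp1a* and 0.071 to 0.17 for *Sri*. The cause of these shifts was not tested. Genes called among all tested numbered 32 without KO replicate 1, 7 without WT replicate 3, 1 without the trend, and 2 without KO replicate 2, without WT replicate 1 or with at least 10 in every heart, against 4. Between the KO and the WT heart that share a replicate number, the correlation was 0.05, -0.07 and -0.03. These values gave no sign of pairing, but with so few hearts they cannot exclude a shared origin. With a replicate block 0 members and 4 genes were called. Few reads limit *Casq1*, *Ryr1* and *Fkbp1b*.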
